A study of Mus musculus with 15 samples.

Results

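Heat shock chaperones are proteins that bind unfolded or damaged proteins and help them to fold, to come apart from aggregates or to be degraded. The 10 genes described here encode the main cytosolic and mitochondrial members of that system, and they were chosen by name: Hspa1a, Hspa1b, Hspa8, Hsph1, Dnajb1, Hspb1, Hsp90aa1, Hspd1, Hspe1 and Bag3. They are 10 of the 24060 entries of the deposited count table, and 10 of 10 had enough counts to be tested.

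RNA of bulk pancreatic islets was sequenced in 15 libraries from FVB/NJ mice aged 9 to 10 weeks, 3 libraries in each of 5 groups. The groups were WT, hIAPP (human IAPP expressed from the insulin II promoter), rIAPP (rodent IAPP from the same promoter), hCAST (human CAST from that promoter) and hIAPP:hCAST, which carries both human transgenes. IAPP, islet amyloid polypeptide, is a beta cell hormone released with insulin, and it aggregates in its human but not in its rodent form. The CAST product, calpastatin, inhibits calpain proteases. No treatment, injury or diet is named in the labels, and WT mice carried none of these transgenes. The insulin promoter directs the transgenes to beta cells, whereas the RNA came from whole islets with all their cell types. The labels do not say that each library was a separate animal, so p-values measure the spread between these libraries, which may be partly technical. Whether each transgene is represented by more than 1 line is not given in the sources used here, so line and group cannot be told apart. The title numbers of WT and hCAST, of hIAPP and hIAPP:hCAST, and of rIAPP lie in separate ranges, and what those ranges stand for cannot be told apart from the IAPP transgenes.

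Background. In unstressed cells the constitutive Hsp70 (Hspa8) and Hsp90 (Hsp90ab1) proteins do most of the folding work, with J-domain proteins such as Dnajb1 delivering substrates and nucleotide exchange factors such as Hsph1 and Bag3 releasing them. When proteins unfold, heat shock factor 1 binds heat shock elements, short inverted repeats of NGAAN, and raises the transcription of Hspa1a, Hspa1b, Dnajb1, Hspb1, Hsph1, Hsp90aa1 and Bag3 within minutes. In mitochondria the Hspd1 rings and the Hspe1 lid fold imported proteins.

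The total was 28287011 to 40191501 counts per library. In WT 2, WT 3 and rIAPP 2, between 67.7% and 94.3% of the counts fell on Rn45s, Lars2 and Mir6236, here called ribosomal-rich. That left 1667190 to 9510502 usable counts, and the remaining 12 libraries had 30199765 to 40062153. WT 2 was the shallowest, and the lowest count of any of the 10 genes was 30 (Hspb1 in WT 2). Results are therefore given with all 15 libraries and, where the call changes, with the 12 others, which leave 1 WT library that is assumed to vary as the other groups do. The beta cell markers, 10 genes including Ins1, Ins2, Mafa and Iapp, marked the libraries as islets, with a summed level of 77873 to 167479 CPM (counts scaled to a common library total). Mouse Iapp was at 34772 to 39137 CPM in rIAPP, above hIAPP (23120 to 23511), hCAST (23201 to 24217) and hIAPP:hCAST (22671 to 25021). In WT it was at 23544 to 43420 CPM, so it did not separate rIAPP from WT, of which WT 2 and WT 3 are ribosomal-rich. Reads of the human transgenes were not analysed here.

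Coordinates are from GRCm38 with the GENCODE M21 annotation. Hspa1a (chromosome 17, 34969190 to 34972156, minus strand) and Hspa1b (34956436 to 34959238, minus strand) each have a single exon and lie 9951 bases apart. Hspa8 is on chromosome 9 (40800984 to 40810087, plus strand) and holds 3 small nucleolar RNA genes within it. Hsp90aa1 is on chromosome 12 (110690605 to 110702728, minus strand), Hsph1 (149614287 to 149636376, minus strand) and Hspb1 (135887919 to 135889563, plus strand) are on chromosome 5, Dnajb1 is on chromosome 8 (83608193 to 83612653, plus strand), and Bag3 is on chromosome 7 (128523616 to 128546981, plus strand). Hspd1 (chromosome 1, 55077835 to 55088243, minus strand) and Hspe1 (55088132 to 55091307, plus strand) stand head to head and overlap by 112 bases at their 5′ ends.

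The upstream sequences of the inducible genes are shown because heat shock elements lie in them. RefSeq (GRCm38.p6) gave windows of 250 bases before the annotated start for 8 of the 10 genes (11 windows, since some genes have more than 1 start). Capitals mark 2 facing units of the heat shock element, GAANNTTC or TTCNNGAA, which read the same on both strands.
Hspa1a, chr17:34972157-34972406, minus strand: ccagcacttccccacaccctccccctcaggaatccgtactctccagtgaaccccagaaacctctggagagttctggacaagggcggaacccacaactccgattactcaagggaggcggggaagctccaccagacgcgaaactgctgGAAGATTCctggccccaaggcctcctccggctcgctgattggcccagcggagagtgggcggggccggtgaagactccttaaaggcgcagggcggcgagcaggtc
Hspa1b, chr17:34959239-34959488, minus strand: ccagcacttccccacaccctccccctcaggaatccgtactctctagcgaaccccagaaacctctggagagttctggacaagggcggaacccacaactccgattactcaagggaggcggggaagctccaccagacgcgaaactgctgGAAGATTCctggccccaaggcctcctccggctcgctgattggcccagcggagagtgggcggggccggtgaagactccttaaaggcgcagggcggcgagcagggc
Hspb1, chr5:135887669-135887918, plus strand: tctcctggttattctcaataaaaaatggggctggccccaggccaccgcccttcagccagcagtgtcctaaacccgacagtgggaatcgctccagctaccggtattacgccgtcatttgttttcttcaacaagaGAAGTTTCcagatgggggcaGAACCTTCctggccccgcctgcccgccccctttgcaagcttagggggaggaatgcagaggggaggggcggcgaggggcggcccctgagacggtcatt
The Hspa1a and Hspa1b windows differ at 3 of 250 bases, and each holds 1 such element, starting 104 bases before the gene. The Hspb1 window holds 2, starting 117 and 97 bases before the gene. None of these 3 windows overlaps an annotated exon.

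Between Hspd1 and Hspe1 a single longer element, 18 bases of alternating units at 55088059 to 55088076 on chromosome 1, lies in the windows of both genes. It is shown because it is the only run of at least 3 units found in the windows of these genes, where 3 units means TTCNNGAA followed after any 2 bases by TTC, or GAANNTTC followed after any 2 bases by GAA, searched on both strands.
Hspe1 side, chr1:55088053-55088082, plus strand: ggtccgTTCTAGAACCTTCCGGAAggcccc
It begins 89 bases before the RefSeq start of Hspe1, which lies downstream of the GENCODE start given above. The Hspe1 window therefore covers 16 bases of an annotated Hspe1 exon. The element also falls in an alternative 5′ exon of Hspd1. In all, 7 of the 11 windows held a 2-unit element (those of Hspa1a, Hspa1b, Hsph1, Hspb1, Hspd1 and Hspe1), whereas 12.8% of the 32851 windows of all genes did. The 11 are not independent, since the Hspa1a and Hspa1b windows are nearly identical and those of Hspd1 and Hspe1 share their element. The 3-unit element was in 2 of the 11 windows, against 0.466% of all windows. The 3-unit motifs contain the 2-unit ones, so the counts overlap. These letters were not found in the windows of Dnajb1 and Bag3. A match is a description of the sequence and shows no binding.

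On a length-scaled level, the deposited FPKM re-scaled to 1 sum in every library outside the ribosomal-rich genes, Hspa8 was the most abundant of the 10 with a mean level of 671 over the 15 libraries. Hsp90aa1 followed at 249, Hspd1 at 103, Hspe1 at 84.2, Dnajb1 at 52.2 and Hsph1 at 47.0. Hspa1b was at 35.1, Hspb1 at 30.5, Hspa1a at 24.2 and Bag3 at 10.8 on the same scale. The ranges over libraries of Hspd1 (88.6 to 122) and Hspe1 (70.2 to 107) overlapped. Within each library Hspd1 was nevertheless the higher, with a ratio to Hspe1 of 1.11 to 1.32. The ranges of Dnajb1 (31.6 to 94.2) and Hsph1 (34.5 to 70.2) also overlapped. Dnajb1 was below Hsph1 in WT 1 and above it in hIAPP 3, so Dnajb1 and Hsph1 were not separated. Hspa8 (489 to 925) lay above Hsp90aa1 (177 to 407) in every library range.

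The genes also differed in how much they varied between libraries. Hspa1a spanned 9.92-fold between its lowest and highest library in CPM, and Hspa1b 8.75-fold, whereas Hspd1 spanned 1.46-fold. The biological coefficient of variation, the spread between libraries of a group beyond counting error, was 0.521 for Hspa1a and 0.497 for Hspa1b, which lie at the 98.9th and 98.7th percentile of the 15460 tested genes. Dnajb1 (0.255) and Hspb1 (0.190) came next. Hsp90aa1 was at 0.141, Hsph1 at 0.123, Hspa8 at 0.120 and Bag3 at 0.111. Hspe1 (0.0930) and Hspd1 (0.0805) were under the median of all genes, 0.109.

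**Figure D1:**
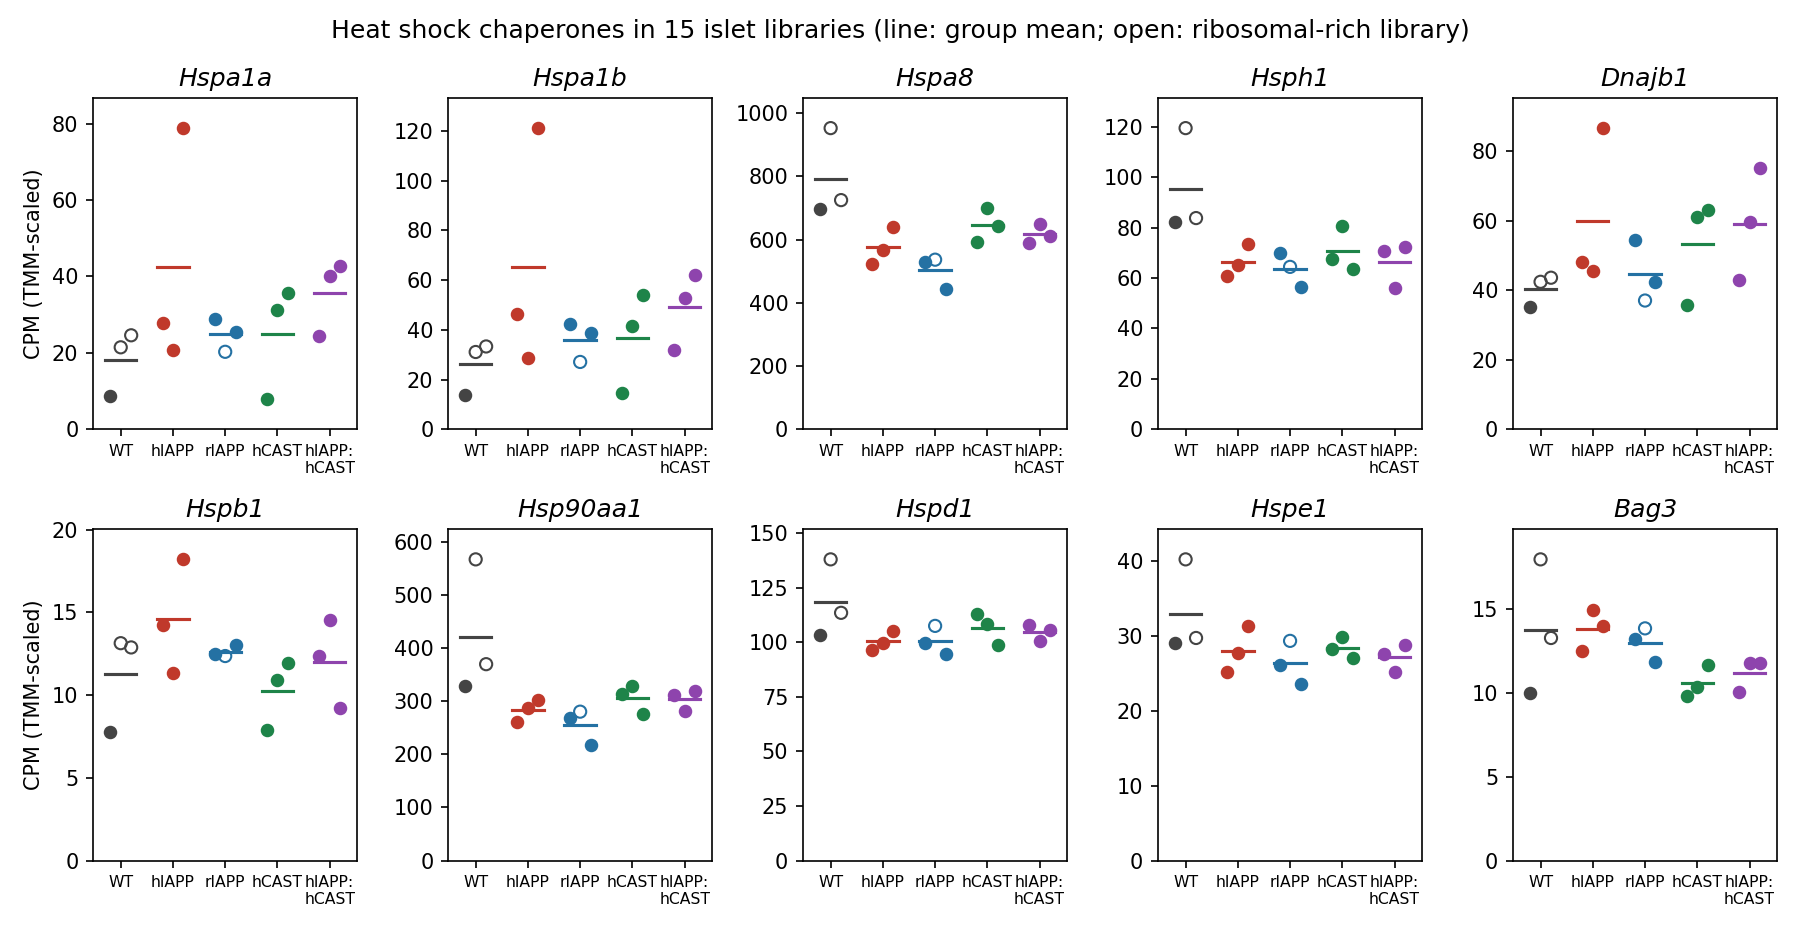
Level of each of the 10 genes in every library, in TMM-scaled CPM on linear axes that start at 0. Points are libraries, lines are group means (n = 3) and open points are the ribosomal-rich libraries WT 2, WT 3 and rIAPP 2. hIAPP 3 is the highest library for Hspa1a, Hspa1b, Dnajb1 and Hspb1, and WT 2 is the highest for Hspa8, Hsph1, Hsp90aa1, Hspd1, Hspe1 and Bag3.

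Hspa8, the constitutive cytosolic Hsp70, was called lower in hIAPP and rIAPP than in WT. Its WT libraries stood at 697, 953 and 725 CPM in the order of their numbers, hIAPP at 523, 567 and 641, rIAPP at 528, 536 and 445, hCAST at 592, 701 and 643 and hIAPP:hCAST at 590, 648 and 611. Every hIAPP, rIAPP and hIAPP:hCAST library was below every WT library, and the rIAPP libraries were also below every hCAST library. The log2 fold change (± SE, edgeR quasi-likelihood test, n = 3 against 3) was -0.45 ± 0.119 for hIAPP against WT (adjusted p = 0.0223) and -0.65 ± 0.120 for rIAPP against WT (adjusted p = 0.000781). For hIAPP:hCAST against WT it was -0.36 ± 0.119, which was not called (edgeR adjusted p = 0.105). Against hCAST, rIAPP was lower by a log2 fold change of -0.36 ± 0.119 (edgeR adjusted p = 0.0382). In bulk islets, fewer cells of a type and less RNA per cell cannot be told apart.

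With the 12 libraries that are not ribosomal-rich, the edgeR fit still called Hspa8 in rIAPP against WT (log2 -0.53, adjusted p = 0.0408) and against hCAST (log2 -0.41, adjusted p = 0.0242), and no longer called it in hIAPP against WT (log2 -0.28, adjusted p = 0.313). Leaving out WT 2 alone gave -0.30 for hIAPP against WT (edgeR adjusted p = 0.0937) and -0.48 for rIAPP against WT (edgeR adjusted p = 0.00502). The hIAPP call was also lost without hIAPP 1 or hIAPP 2 (log2 -0.39 and -0.44). The 15-library call against hCAST was lost without rIAPP 1, rIAPP 2, rIAPP 3, hCAST 2 or hCAST 3, with log2 values from -0.28 to -0.41.

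Hspa1a and Hspa1b, the stress-inducible Hsp70 genes, passed the test in 0 of the 10 pairwise comparisons. For Hspa1a, the WT libraries stood at 8.58, 21.4 and 24.6 CPM, hIAPP at 27.9, 20.8 and 78.8, rIAPP at 28.7, 20.3 and 25.4, hCAST at 7.94, 31.3 and 35.7 and hIAPP:hCAST at 24.5, 40.2 and 42.6. For Hspa1b, the WT libraries stood at 13.8, 31.1 and 33.3 CPM, hIAPP at 46.5, 28.5 and 121, rIAPP at 42.3, 27.1 and 38.7, hCAST at 14.7, 41.7 and 53.9 and hIAPP:hCAST at 31.8, 52.9 and 62.2. Both genes were low in WT 1 and hCAST 1 and high in hIAPP 3, and their groups overlapped throughout.

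For hIAPP against WT the log2 fold change was 1.37 ± 0.714 for Hspa1a, with a 95% interval of -0.21 to 2.96 (edgeR adjusted p = 0.245). It was 1.45 ± 0.671 for Hspa1b, with an interval of -0.04 to 2.93 (edgeR adjusted p = 0.194). At this spread a rise of several fold and no rise were both within the intervals. For rIAPP against WT the log2 value was 0.61 ± 0.720 for Hspa1a and 0.60 ± 0.673 for Hspa1b.

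The 2 Hsp70 genes share long identical stretches, which makes their separate counts uncertain. Of the 50-base windows of the annotated Hspa1a transcript, 58.8% also occur in Hspa1b, and how such reads were counted is not given in the sources used here. The ratio of Hspa1b to Hspa1a counts was 1.30 to 1.85 over the 15 libraries, with a median of 1.46. Together the inducible pair amounted to 2.41% of the Hspa8 level in WT 1 and 23.4% in hIAPP 3, with a median of 7.82%, on the length-scaled level. Windows shared with pseudogenes or other genes made up 74.8% for Hspa8, 58.5% for Hsp90aa1, 51.6% for Hspb1 and 44.8% for both Hspd1 and Hspe1. For Hsph1 and Bag3 the share was 0, and for Dnajb1 it was 0.441%.

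Hsph1, the Hsp110 that acts as a nucleotide exchange factor of Hsp70 and takes part in taking aggregates apart, was lower in hIAPP and rIAPP than in WT. Its WT libraries stood at 82.3, 120 and 83.8 CPM, hIAPP at 60.8, 65.1 and 73.5, rIAPP at 70.1, 64.4 and 56.3, hCAST at 67.8, 80.7 and 63.7 and hIAPP:hCAST at 70.8, 56.1 and 72.2. The 3 WT libraries were the highest of the 15, and the other 4 groups overlapped one another. The log2 fold change was -0.47 ± 0.145 for hIAPP against WT (edgeR adjusted p = 0.0457) and -0.54 ± 0.146 for rIAPP against WT (edgeR adjusted p = 0.0147). In the 12 libraries these were -0.32 (adjusted p = 0.385) and -0.39 (adjusted p = 0.238) in the edgeR fit, so both calls were lost. Without WT 2 alone the edgeR adjusted p was 0.132 and 0.0571. The hIAPP call was also lost when WT 3 or any 1 hIAPP library was left out, with log2 values from -0.42 to -0.55, and the rIAPP call without rIAPP 3 (-0.46). With no filter on low counts the hIAPP value was -0.47 (edgeR adjusted p = 0.0641).

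Dnajb1, the J-domain protein that brings substrates to Hsp70, and Bag3, which links Hsp70 to small heat shock proteins and to autophagy, passed the test in no pairwise comparison with 15 libraries. For Dnajb1, the WT libraries stood at 35.3, 42.5 and 43.6 CPM, hIAPP at 48.1, 45.5 and 86.7, rIAPP at 54.4, 37.1 and 42.3, hCAST at 35.7, 61.1 and 63.2 and hIAPP:hCAST at 43.1, 59.6 and 75.1. Each hIAPP library was above each WT library, but the spread within hIAPP was wide, and the log2 fold change was 0.59 ± 0.323 (edgeR adjusted p = 0.262). For Bag3, the WT libraries stood at 9.96, 17.9 and 13.3 CPM, hIAPP at 12.5, 14.9 and 14.0, rIAPP at 13.2, 13.8 and 11.8, hCAST at 9.82, 10.3 and 11.7 and hIAPP:hCAST at 10.1, 11.8 and 11.8. The hIAPP libraries of Bag3 lay above those of hCAST and hIAPP:hCAST without overlap. The log2 fold change of hIAPP against hCAST was 0.38 ± 0.136 (edgeR adjusted p = 0.108), and it passed when only these groups were fitted (adjusted p = 0.0344 by edgeR).

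Hsp90aa1, the inducible cytosolic Hsp90, was lower in hIAPP and rIAPP than in WT. Its WT libraries stood at 329, 568 and 370 CPM, hIAPP at 261, 287 and 302, rIAPP at 269, 281 and 219, hCAST at 313, 329 and 276 and hIAPP:hCAST at 312, 282 and 320. WT 2 stood far above the rest, and the other WT libraries were above the highest library of hIAPP, rIAPP and hIAPP:hCAST. The log2 fold change was -0.56 ± 0.159 for hIAPP against WT (edgeR adjusted p = 0.0353) and -0.71 ± 0.160 for rIAPP against WT (edgeR adjusted p = 0.00494). In the edgeR fit of 12 libraries the values were -0.22 (adjusted p = 0.425) and -0.44 (adjusted p = 0.0773), so neither passed. Without WT 2 alone they were -0.30 (adjusted p = 0.0994) and -0.43 (adjusted p = 0.0112), by edgeR. The hIAPP call was lost as well without any 1 of the hIAPP libraries (log2 -0.51 to -0.61) and with the compared groups alone (edgeR adjusted p = 0.0893). The level of Hsp90aa1 was 0.280 to 0.365 of that of Hsp90ab1, the constitutive Hsp90, over the 15 libraries on the length-scaled level.

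Hspb1, the small heat shock protein Hsp25 that holds unfolded proteins in a soluble state, passed in no comparison. Its WT libraries stood at 7.74, 13.1 and 12.9 CPM, hIAPP at 14.2, 11.3 and 18.2, rIAPP at 12.5, 12.4 and 13.0, hCAST at 7.86, 10.9 and 11.95 and hIAPP:hCAST at 12.3, 14.5 and 9.19. As for the inducible Hsp70 genes, WT 1 and hCAST 1 were the lowest and hIAPP 3 the highest. The log2 fold change was 0.49 ± 0.246 for hIAPP against WT (edgeR adjusted p = 0.214) and 0.51 ± 0.217 for hIAPP against hCAST (edgeR adjusted p = 0.186).

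Hspd1 and Hspe1, the mitochondrial chaperonin Hsp60 and its lid Hsp10, passed in no comparison with 15 libraries. For Hspd1, the WT libraries stood at 103, 138 and 113 CPM, hIAPP at 96.2, 99.4 and 105, rIAPP at 99.7, 107 and 94.5, hCAST at 113, 108 and 98.5 and hIAPP:hCAST at 108, 100.3 and 106. For Hspe1, the WT libraries stood at 29.0, 40.3 and 29.8 CPM, hIAPP at 25.2, 27.7 and 31.3, rIAPP at 26.2, 29.4 and 23.6, hCAST at 28.3, 29.9 and 27.0 and hIAPP:hCAST at 27.6, 25.2 and 28.8. Apart from WT 2, the 14 other libraries of each gene lay close together, and the ratio of their length-scaled levels stayed between 1.11 and 1.32. For hIAPP against WT the log2 fold change of Hspd1 was -0.21 ± 0.0901, with a 95% interval of -0.40 to -0.02 (edgeR adjusted p = 0.137). That of Hspe1 was -0.17 ± 0.116, with an interval of -0.41 to 0.08 (edgeR adjusted p = 0.380). For rIAPP against WT they were -0.21 ± 0.0906 and -0.26 ± 0.118. Without WT 1, Hspd1 passed in both comparisons (log2 -0.31 and -0.29, adjusted p = 0.0478 and 0.0399 by edgeR).

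**Figure D2:**
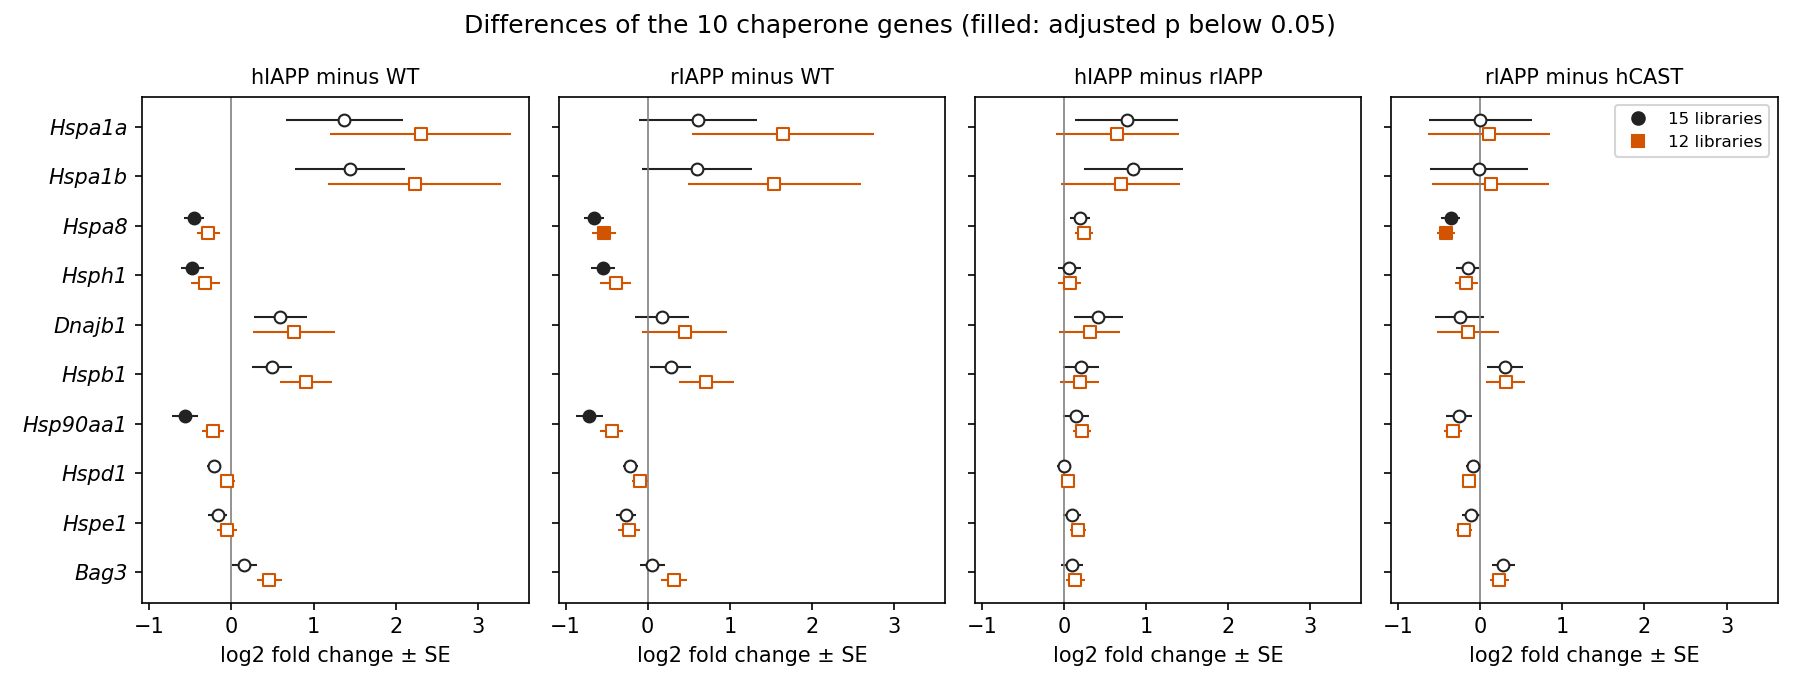
Log2 fold change with its standard error (bars) of each of the 10 genes in 4 comparisons, from the edgeR fit of 15 libraries (circles) and of the 12 that are not ribosomal-rich (squares). Filled marks passed an adjusted p of 0.05. Hspa8 in rIAPP is filled in both fits against WT and against hCAST.

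Counted over the 10 genes, 3 were lower and 0 higher in hIAPP against WT (Hspa8, Hsph1 and Hsp90aa1). Among all tested genes 11.9% were called in that comparison, and 5.59% were called lower. The same 3 were lower and 0 were higher in rIAPP against WT, where 23.3% of all genes were called and 12.6% were called lower. The median log2 fold change of the 10 genes was -0.01 for hIAPP against WT and -0.08 for rIAPP against WT, next to 0.02 and 0.01 over all tested genes. These comparisons share their WT libraries. In the fit of 12 libraries, 0 of the 10 were called in hIAPP against WT (2.39% of all genes) and 1 in rIAPP against WT (9.53%). At an unadjusted p under 0.05 the 12-library edgeR fit had 2 of the 10 in hIAPP against WT, beside 17.6% of all genes. They were Bag3 (log2 0.46, adjusted p = 0.133) and Hspb1 (0.91, adjusted p = 0.173), with values above 0, and none of the 3 genes named before.

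The comparison of hIAPP with rIAPP sets the aggregating human peptide beside the rodent one under the same promoter. None of the 10 genes was called by edgeR, with 0 at an unadjusted p under 0.05 and 0 called by DESeq2, whereas 13% of all genes were called and 24.7% had an unadjusted p under 0.05. The log2 fold change was 0.76 ± 0.629 for Hspa1a, 0.85 ± 0.601 for Hspa1b, 0.42 ± 0.303 for Dnajb1 and 0.20 ± 0.119 for Hspa8. For Hspd1 it was near 0, with a 95% interval of -0.19 to 0.18. The median over the 10 genes was 0.17, beside 0.01 over all genes.

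CAST was compared with its absence on both backgrounds. For hCAST against WT, 0 of the 10 were called by edgeR or DESeq2 and 0.0194% of all genes, and 3 of the 10 had an unadjusted p under 0.05, beside 7.33% of all genes. They were Hspa8 (log2 -0.29 ± 0.119), Hsph1 (-0.39 ± 0.144) and Hsp90aa1 (-0.45 ± 0.159), the genes called lower in hIAPP and rIAPP against the same WT libraries, here with adjusted p from 0.615 to 0.642 by edgeR. In the 12 libraries their log2 values were -0.11, -0.22 and -0.11, and 0 of the 10 had an unadjusted p under 0.05 by edgeR (3.5% of all genes). For hIAPP:hCAST against hIAPP, 0 were called by edgeR or DESeq2 and 0.466% of all genes, and 1 had an unadjusted p under 0.05 (11.3% of all genes). That gene was Bag3, whose hIAPP:hCAST libraries lay below the hIAPP libraries without overlap (log2 -0.30 ± 0.136, edgeR adjusted p = 0.409). Hspa1a and Hspa1b differed by -0.25 ± 0.615 and -0.42 ± 0.590, with 95% intervals of -1.61 to 1.11 and -1.73 to 0.89. The interaction is the human IAPP difference with hCAST minus that without it. It called 0 of the 10 and 0% of all genes by edgeR, with 2 of the 10 (Hspa8, log2 0.39, and Hsp90aa1, 0.56) and 8.71% of all genes at an unadjusted p under 0.05. DESeq2 called 50 of all genes and 0 of the 10. Its largest log2 value among the 10 was that of Hspa1b, -1.03 ± 0.891.

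In the other comparisons, hIAPP:hCAST against hCAST called 0 of the 10 by edgeR and DESeq2 (0.75% of all genes, and at an unadjusted p under 0.05 0 of the 10 and 9.48% of all). hIAPP:hCAST against WT also called 0 (3.48% of all genes). At an unadjusted p under 0.05 it had 3 of the 10 by edgeR, Hspa8 (log2 -0.36), Hsph1 (-0.48) and Hsp90aa1 (-0.46), and 19.2% of all genes, and DESeq2 called these 3 lower. In the 12 libraries their log2 values were -0.18, -0.31 and -0.11. hIAPP:hCAST against rIAPP called 0 by edgeR and DESeq2 (18.2% of all genes). At an unadjusted p under 0.05 that comparison had 1 of the 10, Hspa8 (log2 0.29), and 30.4% of all genes. hIAPP against hCAST called 0 by both (7.19% of all genes), and at an unadjusted p under 0.05 it had 2 of the 10, Bag3 and Hspb1, and 21.6% of all genes. rIAPP against hCAST called 1, Hspa8, and 22.4% of all genes. Across the 5 groups in a single test, Hspa8 (edgeR adjusted p = 0.00633) and Hsp90aa1 (0.0263) passed and Hsph1 did not (0.0522), beside 26.3% of all genes. With 12 libraries 0 of the 10 passed that test by edgeR, beside 15.2% of all genes, and 3 had an unadjusted p under 0.05, beside 29.7% of all. It also fell to 1 gene without WT 2, rIAPP 1 or rIAPP 3.

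Across libraries, 2 sets of the 10 genes moved together, picked out after the values were seen. Among 45 pairs over 15 libraries (log2 CPM, permutation p adjusted over the pairs), Hspa1a and Hspa1b had r = 0.99 (adjusted permutation p = 9e-05, rho = 0.98 with adjusted permutation p = 0.000225). For Hspa1a and Dnajb1, r was 0.89 (adjusted permutation p = 9e-05, rho = 0.93 with adjusted permutation p = 0.000225) and 0.84 without the 2 libraries farthest from the Hspa1a median. Hspa1a and Hspb1 had r = 0.76 (adjusted permutation p = 0.00534), but rho was 0.43 (adjusted permutation p = 0.318) and r fell to 0.49 without the 2 farthest libraries, so that relation rests on them. The shared stretches of Hspa1a and Hspa1b bear on their r, and their part in it was not tested.

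The second set held Hspa8, Hsp90aa1, Hsph1, Hspd1 and Hspe1. For Hspa8 and Hsp90aa1 r was 0.92 (adjusted permutation p = 9e-05, rho = 0.83 with adjusted permutation p = 0.00141), and 0.84 in the 12 libraries. For Hsph1 and Hsp90aa1 r was 0.94 (adjusted permutation p = 0.000113, rho = 0.87 with adjusted permutation p = 0.000675), and 0.80 in the 12 libraries. Hspd1 and Hspe1 had r = 0.91 (adjusted permutation p = 0.000113, rho = 0.76 with adjusted permutation p = 0.0068), and 0.74 in the 12. All points share WT 2, the shallowest library and the highest for this set. Between the sets, Hspa1a and Hspa8 had r = -0.03 (adjusted permutation p = 0.948, rho = 0.075 with adjusted permutation p = 0.903), and r = 0.54 with group means subtracted.

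**Figure D3:**
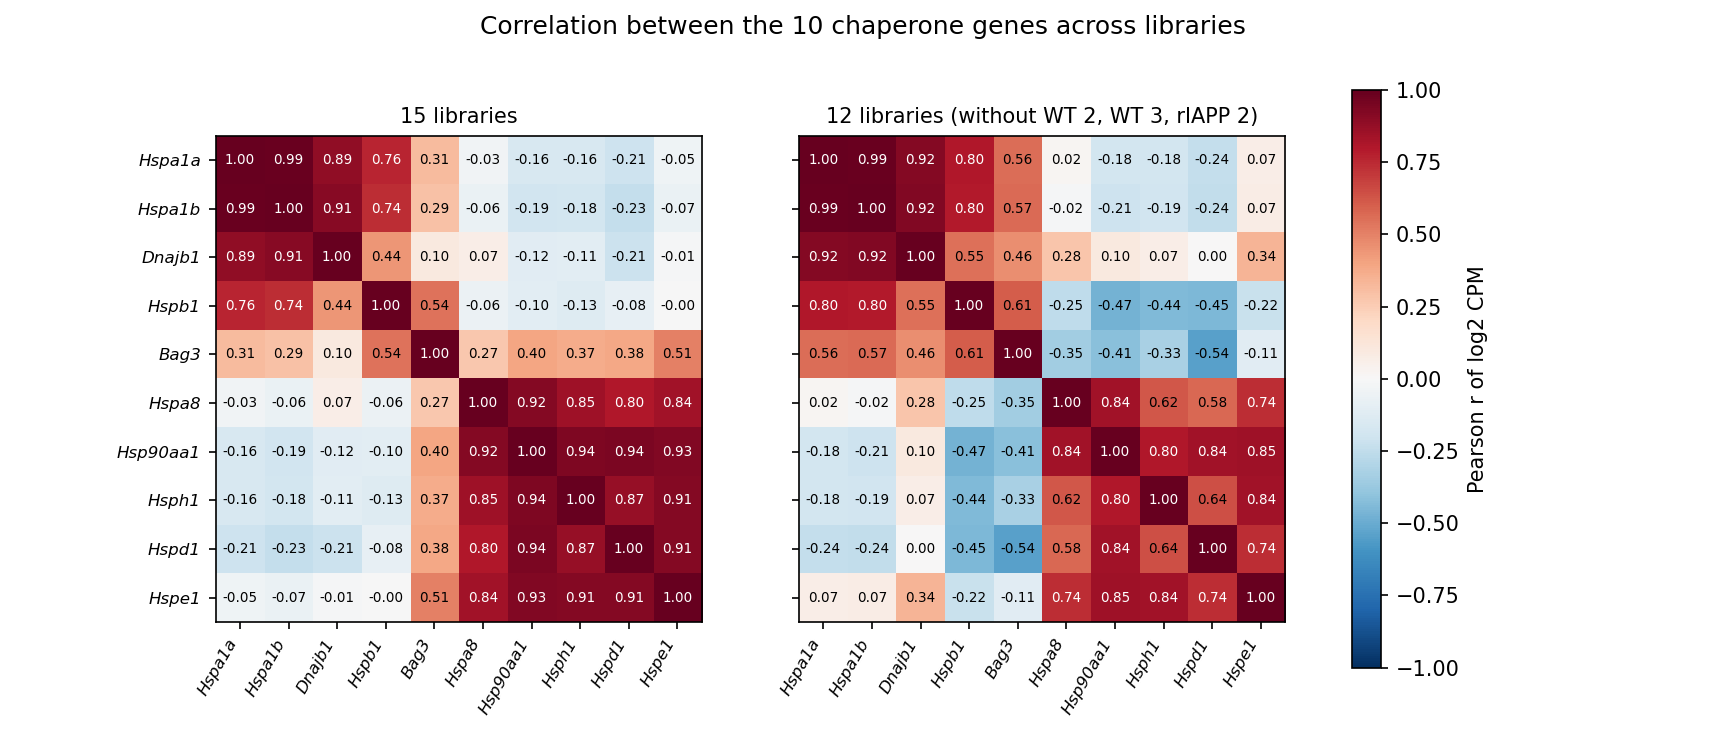
Pearson correlation of log2 CPM between each pair of the 10 genes, over 15 libraries (left) and over the 12 that are not ribosomal-rich (right). Hspa1a, Hspa1b and Dnajb1 form a block of high values at the upper left, and Hspa8, Hsp90aa1, Hsph1, Hspd1 and Hspe1 form another at the lower right.

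Hspa1a, Hspa1b, Hspb1 and Dnajb1 moved with the immediate-early genes, transcription factors and regulators such as Fos, Junb, Egr2 and Ier3 that cells switch on within minutes of stimulation or handling. This relation was computed after the values were seen. The summed CPM of the 15 tested immediate-early genes was 401, 657 and 539 for WT, 997, 737 and 1560 for hIAPP, 884, 770 and 812 for rIAPP, 468, 748 and 880 for hCAST and 790, 1141 and 875 for hIAPP:hCAST. WT 1 and hCAST 1 were the lowest and hIAPP 3 the highest, as for Hspa1b and Hspb1. In hIAPP against WT 7 of the 15 were higher and 0 lower, among them Egr2 (log2 2.23) and Ier3 (log2 1.03), where 6.27% of all genes were called higher. With 12 libraries 1 of the 15 was called, beside 2.39% of all genes.

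Against the mean log2 CPM of these 15 genes over 15 libraries, r was 0.84 for Hspa1a (adjusted permutation p = 0.0007 over 10 relations) and 0.84 for Hspa1b (adjusted permutation p = 0.0007). The rank correlations of these 2 genes were 0.60 and 0.64 (adjusted permutation p = 0.033 and 0.0313). Hspb1 had r = 0.82 (adjusted permutation p = 0.000967) and rho = 0.73 (adjusted permutation p = 0.0167), and Dnajb1 had r = 0.65 (adjusted permutation p = 0.0198) and rho = 0.51 (adjusted permutation p = 0.0673). Without WT 1 and hCAST 1, the libraries farthest from the median, r was 0.65 for Hspa1a, 0.67 for Hspa1b, 0.62 for Hspb1 and 0.48 for Dnajb1. In the 12 libraries r was 0.90, 0.89, 0.96 and 0.69 in that order, and with group means subtracted it was 0.90, 0.89, 0.92 and 0.73. The relation was thus also seen between libraries of the same group, with no p computed for it. The permutations shuffled all 15 libraries without regard to group, so their p does not separate differences between groups from those within them. The part of the immediate-early genes in the chaperone levels was not tested.

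Of the other 6 genes, which include the inducible Hsph1, Hsp90aa1 and Bag3, Bag3 had r = 0.30 (adjusted permutation p = 0.28) and rho = 0.36 (adjusted permutation p = 0.188). Hspa8, Hsph1, Hsp90aa1, Hspd1 and Hspe1 had r between -0.50 and -0.33, with adjusted permutation p from 0.117 to 0.261. Their rho was between -0.76 and -0.46, and Hsp90aa1 (adjusted permutation p = 0.0167), Hsph1 (0.0313) and Hspd1 (0.0316) passed on ranks. With group means subtracted the r of these 5 was 0.07 to 0.56, so the negative relation was one between groups.

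**Figure D4:**
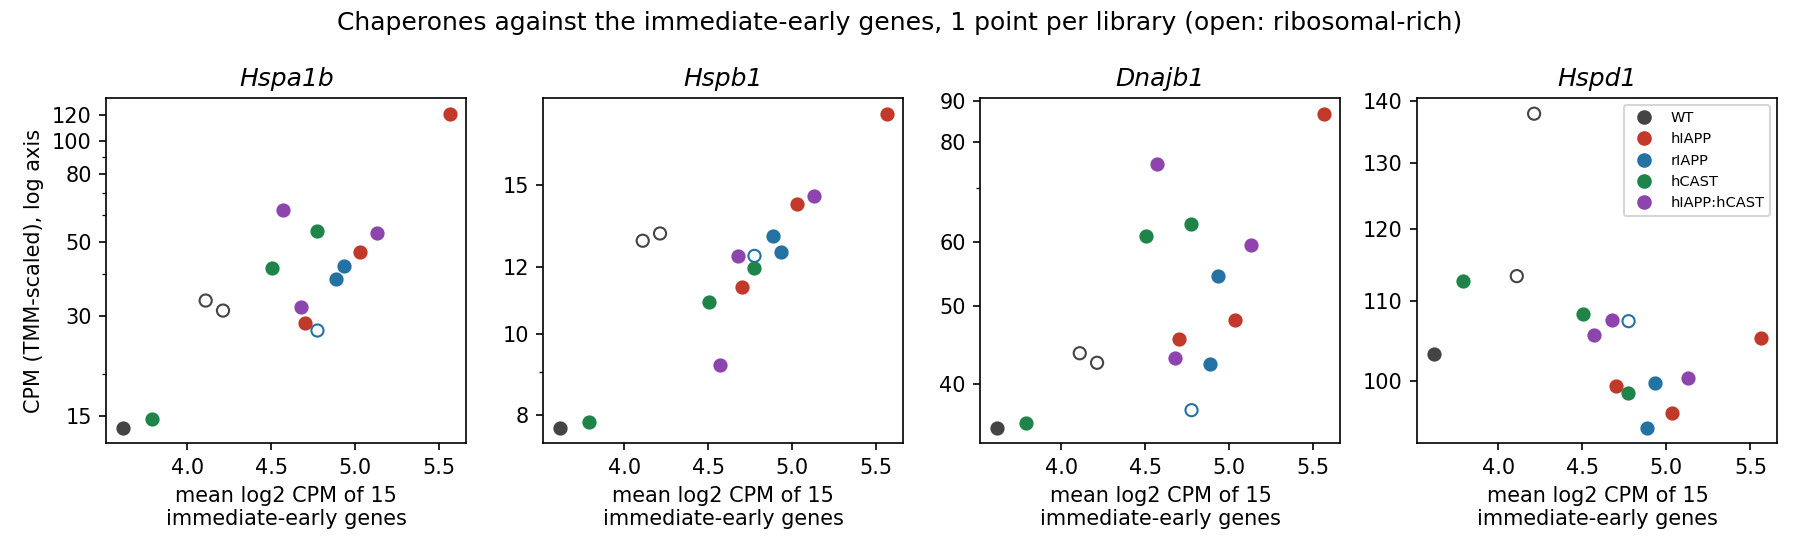
Level of Hspa1b, Hspb1, Dnajb1 and Hspd1 (CPM, logarithmic axes) against the mean log2 CPM of 15 immediate-early genes, 1 point per library, coloured by group, with open points for ribosomal-rich libraries. Hspa1b and Hspb1 rise from WT 1 and hCAST 1 at the lower left to hIAPP 3 at the upper right, and Hspd1 is highest in WT 2.

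By likeness of pattern (Pearson r over 15 libraries with the mean standardised level of Hspa1a, Hspa1b, Hsph1, Dnajb1 and Bag3, among 12404 candidates), the most alike genes were Dusp1 (r = 0.87), Desi2 (0.84), Tob2 (0.83), Bfar (0.80) and Rbm7 (0.79). In the 12 libraries they were Btg2 (0.90), Bfar (0.88), Rbm7 (0.87), Tob2 (0.86) and Rpl27 (0.85). For Hspd1 with Hspe1 the most alike were Atg3, Trip11, Zfp108, Vps26a and Ints4 (r = 0.92 to 0.95). In the 12 libraries 5 others were, led by Tmem41b (0.91). The first score mixes genes that did not move together, since Hsph1 had r = -0.16 with Hspa1a, -0.18 with Hspa1b and -0.11 with Dnajb1. A gene alike to that score need not be alike to each gene in it. All these points share library depth and the ribosomal-rich share.

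The other chaperone and cochaperone genes, 71 tested in 8 lists, were counted in the same way. In hIAPP against WT 2 were higher and 10 lower, together 16.9% of the 71 beside 11.9% of all genes, and with 12 libraries 0 and 1. In rIAPP against WT 2 were higher and 16 lower (25.4%, beside 23.3% of all genes), and with 12 libraries 0 and 8. In rIAPP against hCAST 2 were higher and 13 lower (21.1%, beside 22.4% of all genes), and with 12 libraries 0 and 10, where 16.8% of all genes were called. In hIAPP against rIAPP 8 were higher and 2 lower (14.1%, beside 13% of all genes), and with 12 libraries 7 and 1, beside 8.49%. Against hCAST alone, hIAPP had 3 higher and 1 lower (5.63%, beside 7.19% of all genes), and with 12 libraries 0 and 1, beside 6.63%. Apart from hIAPP against WT, these shares of the 71 in either direction lay near those of all genes in the fit of 15 libraries. By direction they did not all do so. In rIAPP against WT 16 of the 71 were lower and 2 higher, beside 1949 and 1650 of all 15460 genes. In rIAPP against hCAST 13 were lower and 2 higher, beside 1822 and 1634 of all genes. In hCAST against WT and in hIAPP:hCAST against hIAPP or hCAST, 0 of the 71 passed by edgeR.

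Hspa4l, another Hsp110, was lower than WT in hIAPP and rIAPP in the edgeR fits of both 15 and 12 libraries. Its log2 fold change was -0.51 ± 0.092 for hIAPP against WT (edgeR adjusted p = 0.00282, and 0.0458 with 12 libraries) and -0.58 ± 0.093 for rIAPP against WT (edgeR adjusted p = 0.00025, and 0.0126 with 12). Against hCAST it was -0.38 for hIAPP and -0.45 for rIAPP, and both passed with 12 libraries. In the list of Hsp90 genes and cochaperones, 6 of 13 were lower in hIAPP against WT, where 5.59% of all genes were called lower. Among them were Chordc1 (log2 -0.81), Stip1 (-0.62) and Ahsa1 (-0.45). None of these calls held without the ribosomal-rich libraries, which left 1 WT library. In rIAPP against WT 6 of the 13 were lower, beside 12.6% of all genes. In hIAPP:hCAST against WT 3 were lower, beside 3.48% of all genes called in either direction. Without the ribosomal-rich libraries fewer of the 13 were called in rIAPP against WT, and the hIAPP:hCAST calls were lost. Stip1 links Hsp70 to Hsp90, and Ahsa1 stimulates the Hsp90 ATPase.

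Several partners were lower in rIAPP than in both WT and hCAST, also with 12 libraries. They included Hspb8, the small heat shock protein that works with Bag3 (log2 -0.85 against WT and -0.67 against hCAST), Bag4 (-0.60 and -0.51), the J-domain gene Dnaja4 (-0.56 and -0.53), St13 (-0.62 and -0.39), Hsp90ab1 (-0.65 and -0.37) and Hsbp1, the heat shock factor binding protein (-0.44 and -0.29). Compared with rIAPP, hIAPP was higher for Hspb8 (0.60), Bag2 (0.64), the TRiC subunit Cct5 (0.41) and the mitochondrial protease Lonp1 (0.32), each passing with 12 libraries as well. The heat shock factor list had 0 of 4 called in hIAPP against WT. Of the mitochondrial chaperones and proteases 0 of 13 passed in hIAPP against WT and 2 in rIAPP against WT, Htra2 higher (log2 0.50) and Trap1 lower (-0.26), and 0 with 12 libraries. Cryab was higher in hIAPP against WT (0.90, edgeR adjusted p = 0.0368), which was lost with 12 libraries (0.299).

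**Figure D5:**
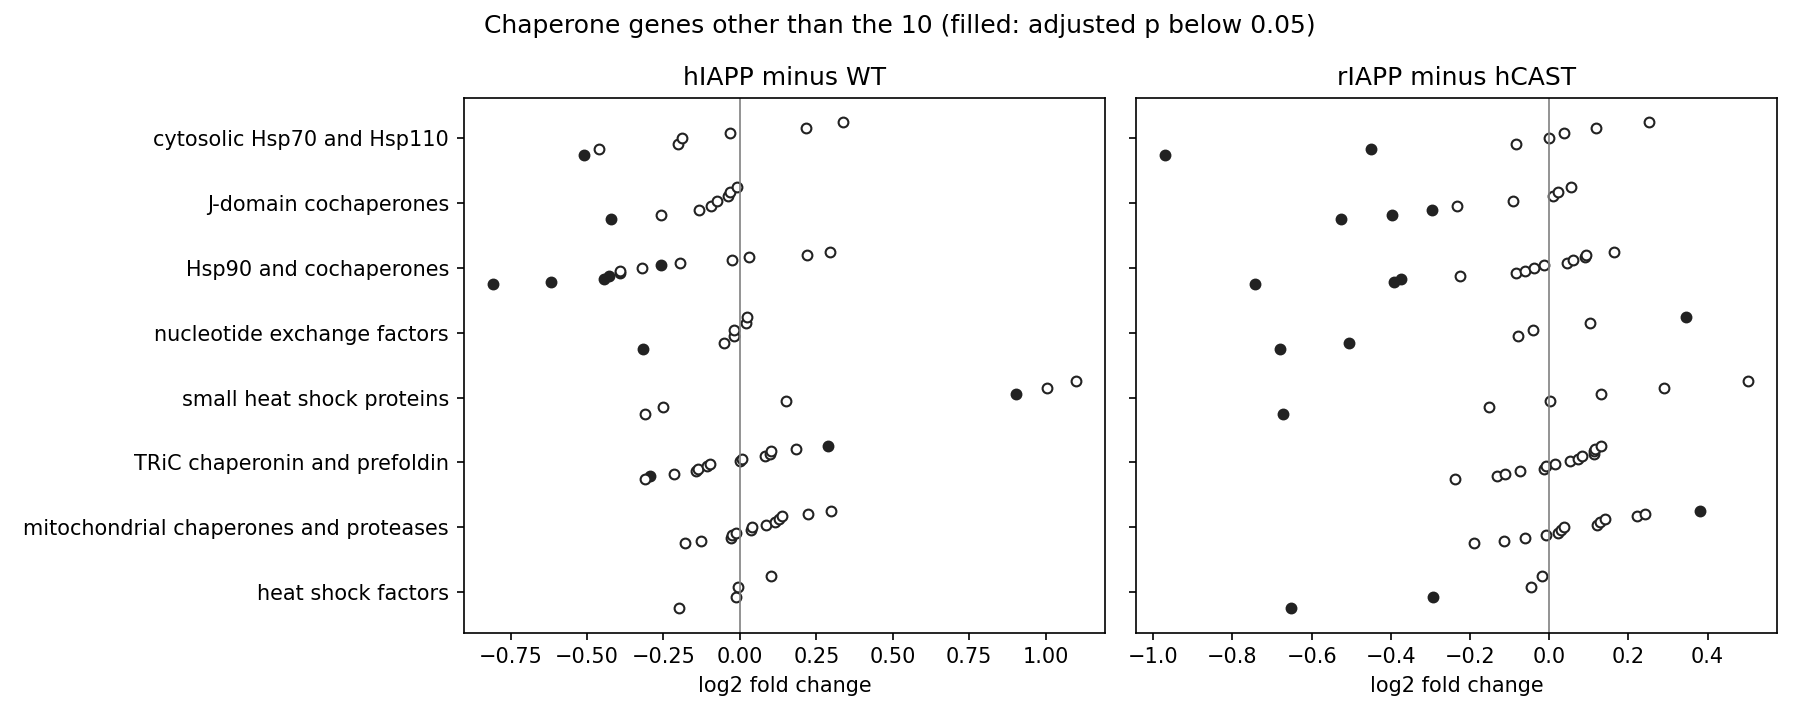
Log2 fold change of each tested gene of 8 chaperone lists that is not among the 10, for hIAPP against WT (left) and rIAPP against hCAST (right), from the edgeR fit of 15 libraries. Each point is a gene, and filled points passed an adjusted p of 0.05. On the left 10 filled points lie below 0 and 2 above, and on the right 13 lie below and 2 above.

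The chaperones of the endoplasmic reticulum, a separate compartment in which insulin and IAPP fold, had 3 of 14 higher and 1 lower in hIAPP against WT, where 11.9% of all genes were called. The higher genes were Pdia6 (log2 0.24), Sdf2l1 (0.34) and Creld2 (0.38), the lower one was Pdia3 (-0.26), and 0 passed with 12 libraries. In rIAPP against hCAST Hspa5, the Hsp70 of this compartment, was higher by 0.39 (edgeR adjusted p = 0.0342, and 0.159 with 12 libraries).

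Marker RNA of several cell types differed between the groups too, and cell numbers were not measured. The marker calls below are from the fit of 15 libraries unless stated. With the 12 libraries, which leave 1 WT library, fewer beta cell, macrophage, and stellate and pericyte markers passed in hIAPP against WT. In rIAPP against WT fewer stellate and pericyte and endothelial markers passed. Beta cell markers summed to 137406 to 167479 CPM in WT, 116327 to 125818 in hCAST, 96271 to 106389 in hIAPP, 91851 to 106084 in hIAPP:hCAST and 77873 to 87794 in rIAPP, and 7 of 10 were lower in hIAPP and 9 of 10 in rIAPP against WT. WT was the highest group and rIAPP the lowest. This sum includes mouse Iapp, which was at 34772 to 39137 CPM in rIAPP and 23120 to 23511 in hIAPP. Whether reads of the rodent IAPP transgene were counted there was not tested. Macrophage markers (8 tested) summed to 281 to 398 CPM in hIAPP, 69.6 to 103 in WT and 58.4 to 78.0 in rIAPP, with 7 of 8 higher in hIAPP against WT. Stellate and pericyte markers (6) summed to 705 to 893 CPM in hIAPP, 719 to 800 in rIAPP, 328 to 488 in hCAST and 246 to 378 in WT, with 6 of 6 higher in hIAPP and 4 of 6 in rIAPP against WT. Endothelial markers (6) summed to 642 to 671 CPM in rIAPP, 498 to 518 in hIAPP, 442 to 477 in hCAST and 449 to 539 in WT. In rIAPP 4 of these 6 were higher against WT and 6 of 6 against hCAST, where 4 were called with 12 libraries. In hIAPP against WT 0 of the 6 were higher and 1 was lower. Acinar markers (12) ranged from 6265 to 92051 CPM over all libraries, and 0 passed in these comparisons. Alpha cell markers (5) summed to 14835 to 17173 CPM in WT, 16754 to 17223 in hIAPP and 17062 to 21374 in rIAPP. Of the alpha, delta (3) and duct (5) markers, 0, 0 and 1 were called in hIAPP against WT, beside 11.9% of all genes. In rIAPP against WT 2, 1 and 2 were called, beside 23.3% of all genes. The T cell markers Cd3e and Cd3d and the B cell marker Ms4a1 were too low to test, with 5 to 11 counts each over all libraries. The part of these cell types in the chaperone differences was not tested.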

How the data were processed

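Islet RNA was measured in 15 libraries, 3 per group, grouped by the source labels. Per the labels, RNA was extracted with an RNeasy kit and libraries were made with TruSeq Ribo-Zero and NuGEN Ovation. The authors deposited whole-number read counts per gene and a matching FPKM table. STAR, HTSeq and the build GRCm38 (mm10) are named in the submitters' processing notes. Versions, annotation, strand and the handling of multiply aligned reads are not given in the sources used here, so counts of overlapping or near-identical genes are uncertain. The deposited FPKM values have totals that include ribosomal reads, and they were re-scaled to 1 common sum outside Rn45s, Lars2 and Mir6236 for levels between genes. Of the table columns, 0 were left unused.

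All 15 libraries entered a single quasi-likelihood fit (edgeR 4.0.16, R 4.3.3), scaled by TMM and filtered with filterByExpr by group, with 1 coefficient for each group. Of 24060 entries 15460 were tested. P-values were adjusted by Benjamini-Hochberg over all tested genes, and a gene was called at an adjusted p below 0.05. The SE is |log2 fold change| over the root of F. DESeq2 1.42.0, limma 3.58.1 on voom weights and on log2(FPKM + pseudocount of 1 or 0.1), no filter, the compared groups only, and leaving out libraries were alternatives. Log2 CPM used a prior count of 2, and correlations used 100000 permutations of all 15 libraries without regard to group.

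The 10 genes, the gene lists and the tests were chosen with earlier results of these data known. Named genes outside the 10 were at most 3 called genes with the smallest p per chaperone list and comparison, and 4 for the endoplasmic reticulum and immediate-early lists. Likeness was computed by Pearson r, leaving out predicted genes and a mean CPM under 1. Cell type markers come from fixed lists.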

Additional observations from a re-analysis of the deposited data

How the results depend on the processing

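No paired analysis was made, because the replicate numbers follow accession order and the title numbers are not shared between groups. Some title numbers of different groups are adjacent, and whether such libraries share a litter or day is not given in the sources used here. Of 1820 alternative values of 110 differences of the 10 genes, 1613 kept their direction and side of the threshold, 150 changed sign without passing on either side, 34 no longer passed, 11 newly passed and 12 reversed.

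The number of the 10 genes called in hIAPP against WT (3) was 0 without WT 2, WT 3 and rIAPP 2, 1 with log2(FPKM + 1) (Hspa1b, higher), and 0 with log2(FPKM + 0.1) or re-scaled FPKM. In rIAPP against WT (3) it was 1, 0, 0 and 1 in that order. Across the 5 groups (2) it was 0 in all 4. hIAPP:hCAST against WT (0) gave 3 with DESeq2. hIAPP against hCAST (0) gave 1 with the compared groups only and 1 with voom. rIAPP against hCAST (1) gave 2 with the compared groups only, 2 with voom and 0 with each of the 3 FPKM forms. Leaving out 1 library gave 0 to 4 in hIAPP against WT, 2 to 4 in rIAPP against WT, 1 to 3 across the 5 groups, 0 to 1 in hIAPP:hCAST against WT and 0 to 1 in rIAPP against hCAST. The causes were not tested.

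The 12 reversals were those of log2(FPKM + 1) and log2(FPKM + 0.1), whose totals include ribosomal reads and which moved the median of all genes to 0.95 and 1.67 in hIAPP against WT and 0.57 and 1.11 in rIAPP against WT. In hIAPP against WT they gave 1.54 and 1.55 for Hspa8, 1.34 and 1.48 for Hsph1, and 1.43 and 1.46 for Hsp90aa1. In rIAPP against WT they gave 0.79 and 0.80 for Hspa8, 0.76 and 0.86 for Hsph1, and 0.73 and 0.75 for Hsp90aa1. Re-scaled FPKM, an alternative chosen after seeing the data, kept the direction in hIAPP against WT (-0.34, -0.39 and -0.43).

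Among all genes, the number called ranged over the alternatives from 383 to 2176 around 1833 in hIAPP against WT, 167 to 4256 around 3599 in rIAPP against WT, and 69 to 3483 around 2009 in hIAPP against rIAPP. It ranged from 2 to 35 around 3 in hCAST against WT, 2 to 283 around 72 in hIAPP:hCAST against hIAPP, 8 to 356 around 116 in hIAPP:hCAST against hCAST, and 0 to 50 around 0 in the interaction. For the comparisons added after seeing the data it ranged from 33 to 936 around 538 (hIAPP:hCAST against WT), 51 to 3416 around 2812 (hIAPP:hCAST against rIAPP), 24 to 3031 around 1112 (hIAPP against hCAST) and 60 to 5925 around 3456 (rIAPP against hCAST). Across the 5 groups it was 159 to 5076 around 4064. Depth limits WT 2 most, where Hspb1 had 30 counts.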
